A study of Homo sapiens with 4 samples.

Results

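The genes described here are the subunits of the human proteasome and the factors that assemble it. They were taken by name from the deposited transcript table, as protein-coding rows of a PSMA, PSMB, PSMC, PSMD, PSME, PSMF or PSMG gene or of POMP. This gave 46 genes with 116 protein-coding transcripts, of 12120 genes with 26348 protein-coding transcripts in the whole table. Of the 49 gene names of these families, PSMA6, PSMA8 and PSMB11 had no coding row in the table used here.

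The RNA came from MDA-MB-231, an established triple-negative breast cancer line, and the study asked how mRNAs respond to KH-3, a small-molecule inhibitor of the RNA-binding protein HuR. The samples used here form 2 groups of 2 libraries each. The paper also names a group with a lower dose of KH-3, which is not among these samples. Cells of the control group received DMSO, the solvent of the compound, for 24 h, and cells of the treated group received 10 µM KH-3 for 24 h. Both groups are the same line, so a single line stands for the tumour type.

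The values below are the authors' mean normalised read counts, 1 per transcript. The sources used here do not state which libraries enter this mean, or whether any of the lower dose do. No value of a single library was used. Each level therefore describes the cultures as a whole, without an error over replicates, and the effect of KH-3 on these genes was not analysed here. The library depth is unknown for the same reason. The lowest mean in the table was 7.34, the median was 50.8 and the highest was 180749, so a transcript under about 7.34 has no row. A gene level is the sum over its protein-coding transcripts of the mean count divided by the transcript length in kilobases, and it is given as counts per kb.

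The proteasome is the protease that degrades most proteins marked with ubiquitin. Its barrel-shaped core is made of outer rings of alpha subunits, which form the gate, and inner rings of beta subunits, of which some cut the substrate. A regulatory particle with a ring of ATPases and a set of non-ATPase subunits binds, unfolds and feeds the substrate, and other activators can cap the core in its place. Dedicated chaperones help to build the rings, and cells exposed to interferon replace the catalytic beta subunits by immunoproteasome forms.

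The libraries carried the markers of the named line. VIM, an intermediate filament of mesenchymal cells, reached 3786 counts per kb, CAV1 2599, EGFR 1242 and CD44 427. Of 6 genes that the line is known to express little or not at all, ESR1, PGR and CDH1 had no row, and ERBB2, GATA3 and EPCAM lay between 24.1 and 43.3. None of 4 leukocyte markers (PTPRC, CD3E, CD14, LYZ) had a row.

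Proteasome genes were among the more abundant genes of these cells. Their median level was 653 counts per kb, against 117 over all genes, and this median lay at the 88.8th percentile of all genes. A level above the median of all genes was found in 36 of the 46 genes, and 21 lay above the 90th percentile. The members' coding rows held 56401 mean counts, or 0.536% of those of all coding transcripts. The single transcripts ranged from 7.36 to 4093 mean counts, with a median of 108 against 91.3 over all coding transcripts. The gene levels ran from PSME2 at 5.73 counts per kb to PSMB1 at 2852.5. These lay at percentiles 5.31 and 98.5 of all genes.

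**Figure D1:**
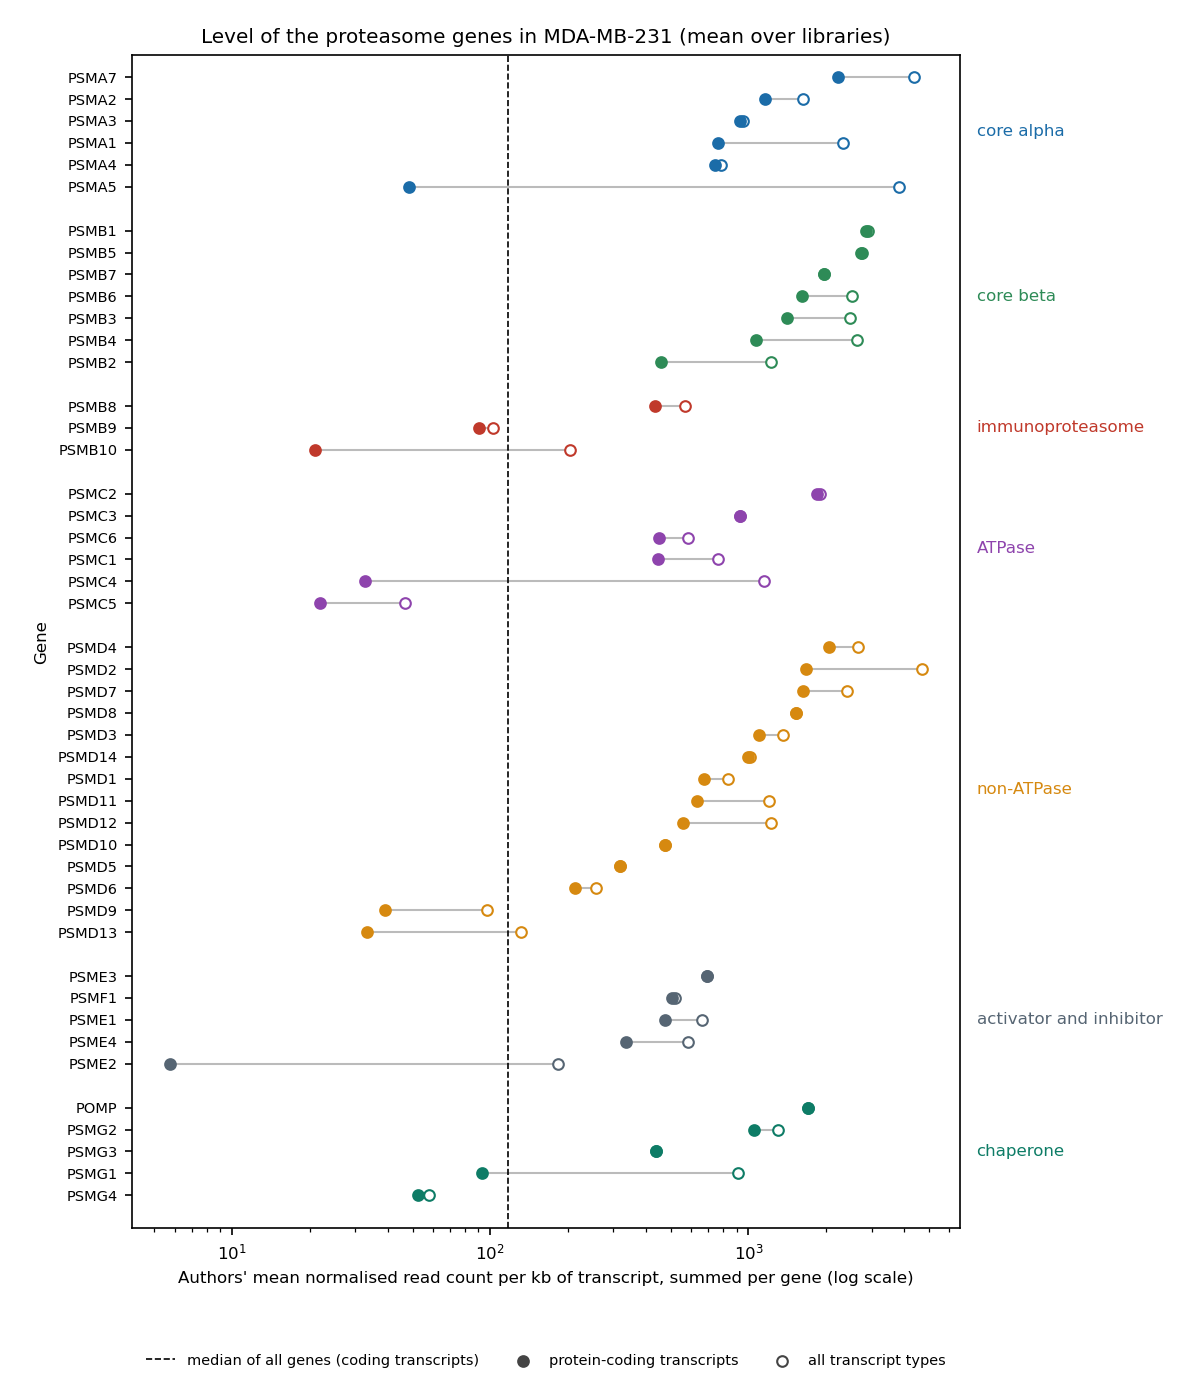
Level of each proteasome gene as the authors' mean normalised read count per kb of transcript, on a log axis, by subunit group. Filled circles sum the protein-coding transcripts, open circles sum all transcript types, and the dashed line is the median of all genes at 117. All 7 core beta genes lie right of the line, and PSMA5, PSMC4 and PSME2 show some of the widest gaps between filled and open circles.

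The 6 core alpha genes with a coding row had a median of 846 counts per kb. PSMA7 was the highest at 2214. PSMA2 followed at 1153 and PSMA3 at 928. PSMA1 at 764 and PSMA4 at 741 were close to each other, and no replicate error is at hand to separate them. PSMA5 stood apart at 48.3, which made the ratio of highest to lowest 45.8. All of these encode parts of the outer ring, and each such ring holds 1 copy of every alpha subunit.

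The low value of PSMA5 rested on the kind of transcript that held its reads. PSMA5-002, annotated as a processed transcript without an open reading frame, had 2839 mean counts, and the coding transcript PSMA5-001 had 105. The gene lies at chr1:109399042-109426448 on the minus strand (hg38). With all transcript types summed, PSMA5 had 3832 counts per kb. Among the 6 alpha genes with a coding row, PSMA4 was then the lowest at 782, and the ratio of highest to lowest was 5.60. PSMA6 had rows but no coding row, and is left out of that ratio. Its 2 rows were a retained-intron transcript with 18.1 mean counts and a transcript of the nonsense-mediated decay class with 7.52. They had 3.84 and 8.13 counts per kb, so the ratio of 5.60 leaves out a lower alpha gene. PSMA8, a testis form of PSMA7, had no row of any type.

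The core beta genes had the highest median of the groups, 1618 counts per kb, and all 7 lay above the median of all genes. PSMB1 reached 2852.5, and PSMB5, which carries the chymotrypsin-like site and is the main target of proteasome drugs, reached 2732. PSMB7, the trypsin-like subunit, was at 1957 and PSMB6, the caspase-like subunit, at 1618. The non-catalytic PSMB3 and PSMB4 had 1404 and 1067. PSMB2 was the lowest at 457, and the ratio of highest to lowest was 6.24, the smallest of the 7 groups. It was 2.39 with all transcript types, with PSMB2 still the lowest at 1220. PSMB11, the thymus form, had no row of any type.

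The 3 immunoproteasome genes were far lower than the catalytic subunits that they replace. PSMB8, the counterpart of PSMB5, had 433 counts per kb and a PSMB5 to PSMB8 ratio of 6.32. PSMB9, the counterpart of PSMB6, had 90.4 and a ratio of 17.9. PSMB10, the counterpart of PSMB7, had 21.0 and a ratio of 93.0. PSMB8 was thus the only immunoproteasome gene above the median of all genes, at the 82.2nd percentile, while PSMB9 and PSMB10 lay at the 43.3rd and 17.0th percentiles. In a bulk culture, few cells with a transcript and a small amount of it in each cell cannot be told apart.

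The order within the immunoproteasome set depended on the transcript types. PSMB10 had 25.6 mean counts in its coding transcript and 129 in 3 retained-intron transcripts. With all types summed, PSMB10 reached 203 counts per kb and passed PSMB9 at 103, and the ratio of PSMB7 to PSMB10 was 9.65. The ratios of the other pairs were 4.84 for PSMB5 to PSMB8 and 24.6 for PSMB6 to PSMB9. On either scale the constitutive subunit was the higher one in all 3 pairs. PSMB8 (chr6:32840717-32844679, minus strand) and PSMB9 (chr6:32844136-32859851, plus strand) are neighbours in the major histocompatibility region and overlap in the annotation. TAP1 and TAP2, the peptide transporter genes of the same region, had 225 and 384 counts per kb.

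**Figure D2:**
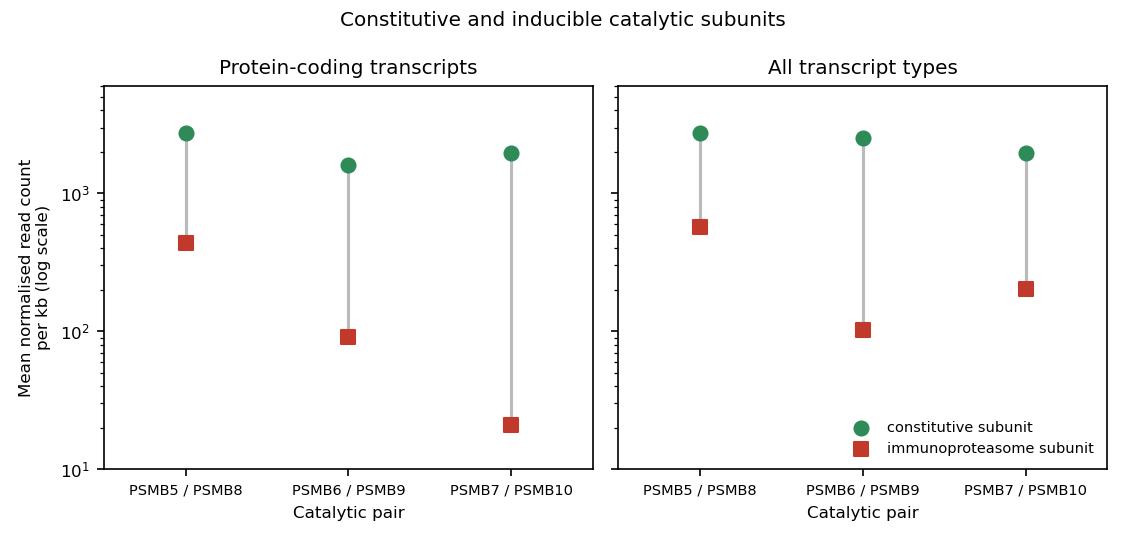
Mean normalised read count per kb (log axis) of the 3 constitutive catalytic subunits (circles) and of the immunoproteasome subunits that replace them (squares), with protein-coding transcripts on the left and all transcript types on the right. The constitutive subunit is higher in each pair, and the gap of PSMB7 to PSMB10 narrows from 93.0 to 9.65.

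The 6 ATPase genes, whose products form the unfolding ring, were less even. PSMC2 was the highest at 1848 counts per kb and PSMC3 followed at 923. PSMC6 at 451 and PSMC1 at 445 were nearly equal. PSMC4 at 32.9 and PSMC5 at 22.0 were below the median of all genes. The ratio of PSMC2 to PSMC5 was 84.1, in a ring that holds 1 copy of each of its 6 subunits.

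PSMC4 and PSMC5 differed in what the other transcript types added. The retained-intron transcripts PSMC4-003 and PSMC4-004 had 960 and 771 mean counts, and the coding PSMC4-002 and PSMC4-001 had 36.5 and 8.73. PSMC4 (chr19:39971165-39981764, plus strand) therefore had 1150 counts per kb with all types. PSMC5 stayed low. Its 5 rows summed to 75.5 mean counts, its reference transcript (MANE Select, the agreed representative of a gene) had no row, and its level with all types was 46.6, the lowest of all 46 genes on that scale. The ratio of highest to lowest ATPase gene was then 40.4.

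The 14 non-ATPase genes had a median of 653 counts per kb, and 12 of them lay above the median of all genes. PSMD4, a ubiquitin receptor, was the highest at 2052. PSMD2, a large scaffold protein that binds ubiquitin shuttles, had 1676, and PSMD1, the other large scaffold of the base, had 675. PSMD14, the deubiquitinase of the lid, had 999 and its dimer partner PSMD7 1619. The remaining lid subunits lay over a broad range. PSMD8 had 1522, PSMD3 1100, PSMD11 632, PSMD12 556, PSMD6 212 and PSMD13 33.3.

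PSMD13 was the lowest non-ATPase gene, and the ratio of PSMD4 to PSMD13 was 61.6. Its coding row, PSMD13-201, had 52.3 mean counts, 5 rows of other types had 91.4 together, and its MANE Select transcript had no row. PSMD5, PSMD9 and PSMD10 are named as subunits but act as chaperones that build the base of the regulatory particle and leave it. They had 318, 39.0 and 474 counts per kb. PSMD9 was also a gene without its MANE Select row, and it became the lowest non-ATPase gene with all types, at 97.5. The highest changed as well on that scale, to PSMD2 at 4714 against 2664 for PSMD4.

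The activators and the inhibitor had a median of 473 counts per kb. PSME3, a nuclear activator, was the highest at 693. PSMF1, named as an inhibitor of the core, had 505, and PSME4, a large activator linked to histone turnover, had 336. PSME1 and PSME2 encode the proteins of an interferon-inducible ring that can cap the core. They gave very different coding levels. PSME1 (chr14:24136163-24138967, plus strand) had 473 and PSME2 (chr14:24143362-24147570, minus strand) had 5.73, the lowest of the 46 genes.

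The single coding row of PSME2 had 8.05 mean counts, close to the lowest value in the table. Its 7 other rows had 203 together, of which the retained-intron PSME2-005 had 75.1. With all types PSME2 reached 183 counts per kb and PSME1 659. PSME2 thus remained the lowest of its group, and the ratio of highest to lowest was 3.78 in place of 121.

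The 5 assembly factors had a median of 438 counts per kb. POMP, which guides the beta rings and is the first substrate of the finished core, was the highest at 1697 and had no row of another type. PSMG1 and PSMG2 form a dimer that builds the alpha ring, and PSMG3 and PSMG4 form another. The members of each dimer differed in level. PSMG2 had 1049 against 93.0 for PSMG1, and PSMG3 had 438 against 52.7 for PSMG4. With all types PSMG1 had 908 beside 1305 for PSMG2, whereas PSMG4 had 58.1 beside 438 for PSMG3. The median of the core alpha and beta genes was 2.63 times that of the assembly factors.

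Promoter sequence was examined because inducible proteasome genes are known to be driven by short elements near the start of the gene. The 250 bases before the start of 40 of the 46 genes were available from RefSeq (GRCh38.p14), and 5 motifs were searched on both strands. The motifs were chosen with these sequences in view, so a share above the background is a description and not an independent result. TGACNNNGC is the core of the antioxidant-type element that NFE2L1 and NFE2L2 bind. It was present in 11 of 40 members, or 27.5%, against 11.0% of 27305 promoters and 12.2% of the promoters of genes in the table. Those members were PSMB3, PSMB9, PSMD3, PSMD5, PSMD9, PSMD12, PSME1, PSME2, PSME4, PSMG1 and PSMG2. The following windows show the match in capitals in a core gene, 3 non-ATPase genes, an activator and an assembly factor, each 5′ to 3′ on the strand of the gene.
PSMB3 (chr17:38752627-38752655, plus strand): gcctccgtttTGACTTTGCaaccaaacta
PSMD3 (chr17:39980760-39980788, plus strand): tcccctttgtTGACTCGGCcatcggcctg
PSMD5 (chr9:120843038-120843066, minus strand): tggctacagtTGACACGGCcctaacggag
PSMD12 (chr17:67366724-67366752, minus strand): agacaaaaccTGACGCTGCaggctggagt
PSME1 (chr14:24136098-24136126, plus strand): atggcagggcTGACCCCGCctcctccatc
PSMG2 (chr18:12658689-12658717, plus strand): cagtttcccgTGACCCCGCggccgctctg

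The matches began from 183 bases before the start in PSMG1 to 34 in PSME4. PSME1 and PSMG2 shared the whole match, TGACCCCGC, and PSMD9 and PSME2 shared TGACCCAGC. None of these 12 matches, and none of the 6 matches of the next motif, overlapped a match of another motif searched. GAAANNGAA is the core of an interferon-type element that IRF factors bind. It was present in 6 of 40 members, or 15%, against 7.06% of all promoters and 5.30% of those of genes in the table. Those members were POMP, PSMA4, PSMB4, PSMB10, PSME2 and PSMG4. The windows below show the 3 members whose match was identical, and POMP, whose match is the nearest to the start, at 15 bases.
PSMB10 (chr16:67936853-67936881, minus strand): gggtaaaggcGAAAGCGAAagcaggaagt
PSME2 (chr14:24146620-24146648, minus strand): cctggggagtGAAAGCGAAagcccgggcg
PSMG4 (chr6:3258904-3258932, plus strand): ttccggggccGAAAGCGAAagcgcgctcg
POMP (chr13:28659105-28659129, plus strand): ccagccctcgGAAACGGAAgtgagc

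The 3 genes with the identical match, PSMB10, PSME2 and PSMG4, had coding levels of 21.0, 5.73 and 52.7 counts per kb, each the lowest of its group. With all types summed, PSME2 at 183 and PSMG4 at 58.1 stayed the lowest, and PSMB10 at 203 did not. POMP, with another match of the same motif, was the highest of its group. PSMA4 and PSMB4, also with other matches, had coding levels of 741 and 1067. A link between the motif and the level was not tested. PSMB8 had neither motif in its window, which lies before the start of PSMB8-001, with 44.9 mean counts. The leading PSMB8-002, with 394, starts at chr6:32844047, and the bases before that start were not searched. In some other members too, the window did not lie directly before the start of the leading transcript. The window of PSMA4 ends at chr15:78540404, and its leading PSMA4-017 starts at chr15:78540814. Those of PSMD2 and PSMD8 lie before MANE Select transcripts that do not lead. TTCNNNGAA, the core of a STAT-type element, was present in 4 members, or 10%, against 6.78% of all promoters. CCAAT was present in 17, or 42.5%, against 33.0%, and GGGCGG in 25, or 62.5%, against 42.3% of all promoters and 68.1% of those of genes in the table. A match describes these letters in this window and does not show that a factor is bound, and no binding was measured in these libraries.

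The members carried a larger share of their reads in transcripts that are not annotated as coding than genes did in general. Over the members, 71.3% of the mean counts lay in coding rows, 11.6% in retained-intron rows, 11.5% in processed transcripts and 5.64% in rows of the nonsense-mediated decay class. Over all genes with a coding row, the shares were 88.2%, 5.46%, 3.0% and 3.33%. The median share per gene outside coding rows was 24.9% for the members and 1.20% for all genes. These medians include genes with no counts outside coding rows, which were 8 of 46 members and 5701 of 12120 genes. In a comparison chosen after the values were seen, only genes with a total of 688 to 2264 mean counts over all types, the quartiles of the members, were taken. The medians were then 9.50% over 22 members and 2.61% over 3368 genes, and 9.09% of these members and 7.27% of these genes had more than 50% outside coding rows. The gap was smaller in this range than over all genes. The totals include the counts outside coding rows, the part of abundance in the gap was not tested, and no error is at hand to test it with.

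In 9 of the 46 members, or 19.6%, more than 50% of the counts lay outside coding rows, against 9.46% of all genes. These were PSMC4 at 97.5%, PSMA5 at 96.8%, PSME2 at 96.2%, PSMG1 at 87.5%, PSMB10 at 83.4%, PSMC5 at 70.6%, PSMB4 at 67.1%, PSMD13 at 63.6% and PSMA7 at 51.2%. Each of the 7 groups held at least 1 of these genes, as the plot of transcript types shows. In 8 of 46 members no row of another type was listed, against 5701 of 12120 genes with no counts outside coding rows. The 8 members were POMP, PSMB7, PSMC3, PSMD5, PSMD8, PSMD10, PSME3 and PSMG3.

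**Figure D3:**
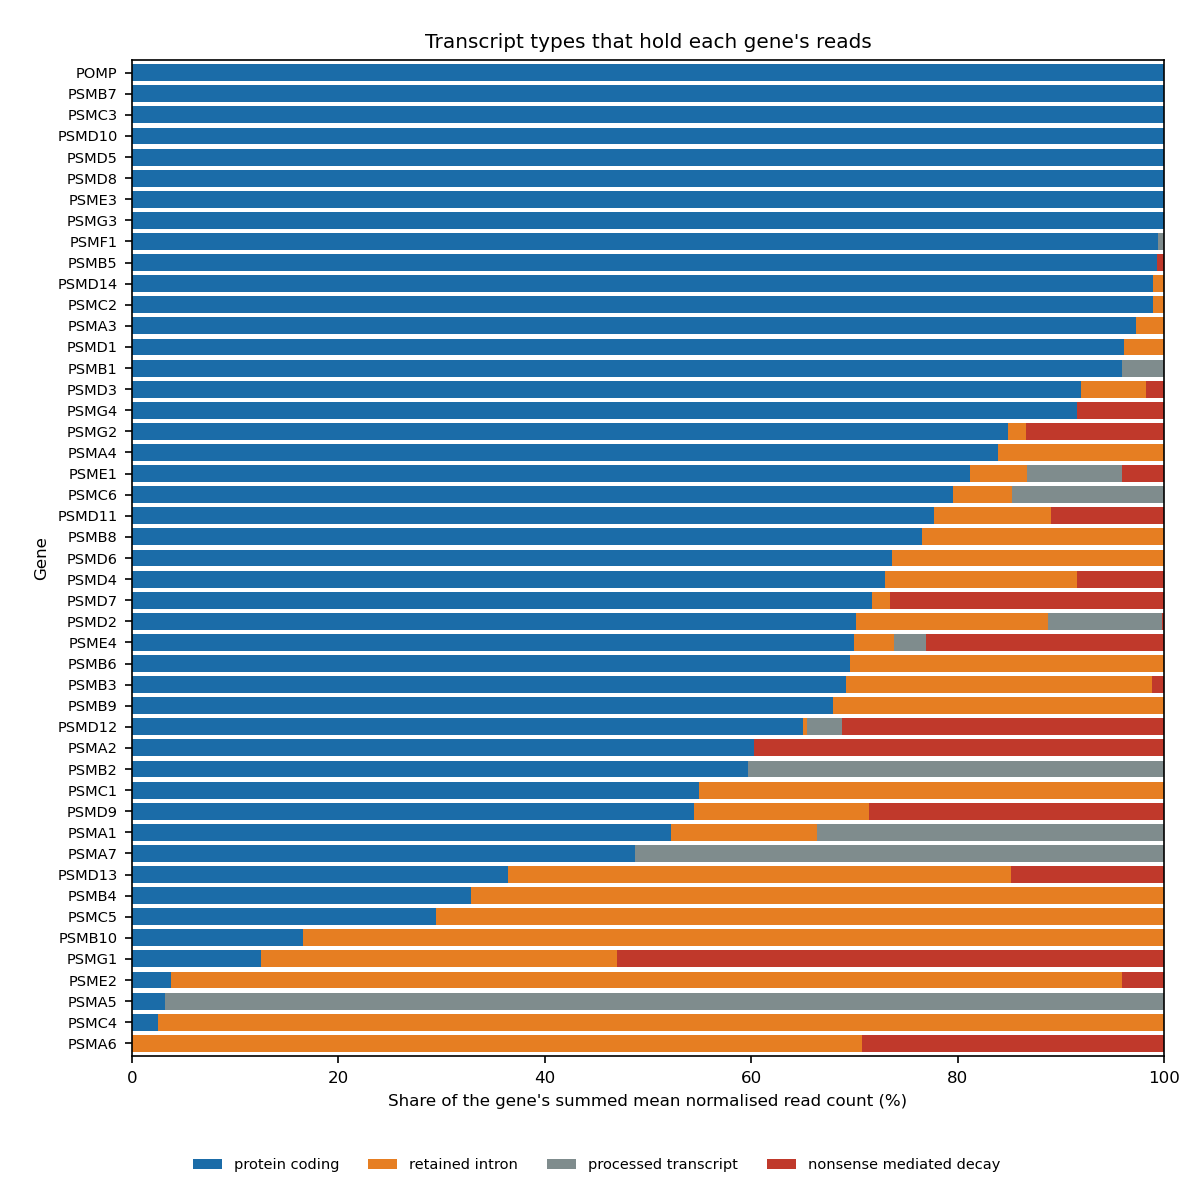
Share of each gene's summed mean normalised read count (%) by annotated transcript type, sorted by the protein-coding share. The coding share is 100% in 8 genes at the top, and under 50% in 9 members from PSMA7 to PSMC4; PSMA6, which has no coding row, is at the bottom.

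Retained-intron rows were the most numerous other type, with 72 rows, beside 18 processed transcripts and 20 of the decay class. Which type led differed between genes. PSMB4-003, a retained-intron transcript, had 1108 mean counts beside 1028 in the coding PSMB4-001. PSMA7-004, a processed transcript, had 2140 beside 1733 in PSMA7-001. PSMA2-005, of the decay class, had 674 beside 554 in PSMA2-001, and PSMD7-002, of the same class, had 969 beside 2519 in PSMD7-001. The rows of a gene overlap in sequence, and the authors' estimation program divides the shared reads among them, so that a split between rows is an estimate and not a direct count.

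Below the median of all genes were 10 members, namely PSMA5, PSMB9, PSMB10, PSMC4, PSMC5, PSMD9, PSMD13, PSME2, PSMG1 and PSMG4. In 8 of these, the MANE Select transcript had no row or over 50% of the counts lay outside coding rows. PSMB9 and PSMG4 were the exceptions. When all types were summed and the members compared with the median of all genes on that scale, 157 counts per kb, PSMA5, PSMB10, PSMC4, PSME2 and PSMG1 moved above it. The other 5 stayed below it. How many of all genes below the median had either trait, or moved above it, was not counted. A coding level leaves out counts outside coding rows, so a low level and a large share outside them are not independent. The MANE Select transcript had no row in 7 members, or 15.2% (PSMC1, PSMC5, PSMC6, PSMD9, PSMD13, PSME3 and PSMG2), against 13.9% of the 11915 genes that have one, so that the members were close to the background in this respect.

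Where the MANE Select transcript was listed, another coding transcript led in 15 of 39 members, or 38.5%, against 23.8% of all genes with that transcript listed. No other can lead in a gene with a single coding row, as in 10 of 46 members and 4444 of 12120 genes. The part of this in the difference was not tested. Of the 15 members, 4 are given here, named after their values were seen. PSMD2-003 had 4093 mean counts, the highest of all member transcripts, and the MANE Select PSMD2-001 had 98.7. PSMD8-010 had 1979 and the MANE Select PSMD8-001 had 7.36. In both genes, the leading transcript is shorter than the MANE Select one, with 2633 against 3449 bases in PSMD2 and 1330 against 1553 in PSMD8. PSMC2-202 (1357 bases) had 2047 and the MANE Select PSMC2-201 (2637 bases) had 319. PSMA4-017 (719 bases) had 442 and the MANE Select PSMA4-001 (4411 bases) had 26.8.

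The leading coding transcript held a median of 89.4% of a member's coding counts, close to the 89.3% over all genes. It held under 60% in 10 members, or 21.7%, against 20.5% of all genes. PSMC3 was the most divided, with 35.8% in PSMC3-002 (477 mean counts), followed by PSMC3-001 with 379, PSMC3-012 with 348 and PSMC3-201 with 128. PSMB5 had 1296 in PSMB5-005, 591 in PSMB5-004 and 557 in PSMB5-002, so that its leading transcript held 49.6%. PSME3-002 held 49.9% with 1081.

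The other 7 members were divided mostly between a pair of transcripts, each named here with its mean count. PSMA2-001 and PSMA2-006 had 554 and 533, and PSMD11-004 and PSMD11-001 had 924 and 835. PSMD12-002 and PSMD12-001 had 935 and 762, and PSMD1-202 and PSMD1-001 had 1276 and 868. PSMA1-004 and PSMA1-001 had 634 and 377, and PSMC5-011 and PSMC5-006 had 13.1 and 9.13. Their second transcripts thus held from 33.2% of the coding counts in PSMA1 to 49.1% in PSMA2. In PSMD4, the short PSMD4-010, with 371 bases, had 519 beside 754 in PSMD4-001, and per kb it was the higher, at 1400 against 559. Most of the level of PSMD4, 2052 counts per kb, therefore came from a short transcript.

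**Figure D4:**
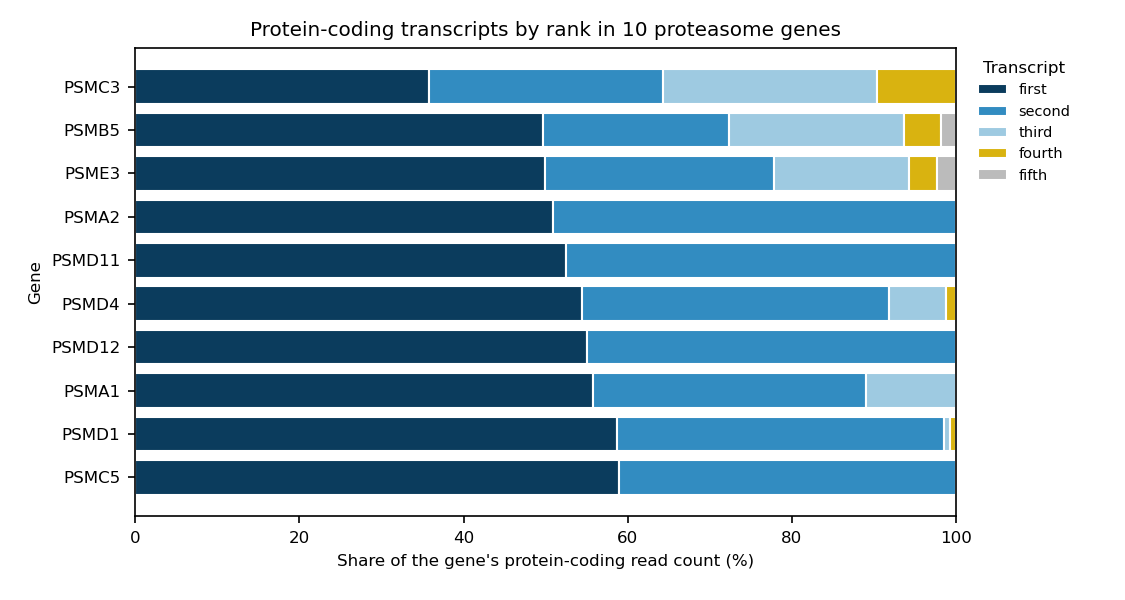
Share of the gene's protein-coding mean normalised read count (%) held by each coding transcript, in order of size, in the 10 proteasome genes whose leading coding transcript holds under 60%. PSMC3 is the most divided, with 35.8% in its leading transcript, and PSMC5 the least, with 58.9%.

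Rows of relatives and of antisense genes lay beside some members. The pseudogene PSMC1P1 had 826 mean counts, more than the 570 in the coding rows of PSMC1, and PSME2P2 had 59.1 against 8.05 for PSME2. PSMD10P2 had 45 in 2 rows against 716 for PSMD10. These pseudogenes are near copies of the mRNA, so reads of PSMC1 and PSME2 in particular could have been assigned to either row, and the levels of those genes are uncertain to that extent. Of antisense names, PSMA3-AS1 had 449 in 4 rows, PSMG3-AS1 193 in 2 rows, PSMD5-AS1 179 in 5 rows, PSMD6-AS2 19.5 and PSMB8-AS1 12.5. Whether the counting used strand is not stated, so reads of these genes and of their partners cannot be told apart where they overlap.

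Genes that act with the proteasome were listed in full, 19 of 19, with a median level of 499 counts per kb and 15 above the median of all genes. ADRM1, a ubiquitin receptor of the regulatory particle, was the highest at 2156, close to PSMD4 at 2052. SEM1, a small lid subunit, had 652. The deubiquitinases USP14 and UCHL5, which sit on the particle, had 620 and 248, and the ligase UBE3C had 811. TXNL1, a thioredoxin-like protein of the particle, had 726, and KIAA0368, an adaptor of the proteasome, had 403. PAAF1, a chaperone of the base, was the lowest of the list at 10.2.

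The shuttle factors and regulators covered a similar range. UBQLN1 and RAD23B, which carry ubiquitylated proteins to the particle, had 1051 and 963, whereas UBQLN4 and UBQLN2 had 346 and 87.3. VCP, the segregase that extracts proteins for degradation, had 755. NFE2L1 and NFE2L2, transcription factors that raise proteasome genes under stress, had 499 and 754. NGLY1 and DDI2, the enzymes that activate NFE2L1, had 23.5 and 85.1, both below the median of all genes. With all types VCP had 4768, TAP2 985 and NGLY1 50.8, and the ratio of highest to lowest in the list was 469 in place of 212.

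The TRiC/CCT ring, another complex of fixed stoichiometry with 8 subunits, showed a narrower range of coding levels than any of the 7 proteasome groups. Its genes lay between 1133 (CCT5) and 4229 (CCT7) counts per kb, with a median of 2608 and a ratio of highest to lowest of 3.73. The core alpha, ATPase and non-ATPase groups had ratios of 45.8, 84.1 and 61.6 on the same scale. With all types the ring had a ratio of 4.09, core alpha without PSMA6 5.60, the ATPases 40.4 and the non-ATPases 48.4. Core beta at 2.39 and the activators at 3.78 were then narrower than the ring. No test of these ratios was possible on means without an error.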

How the data were processed

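Bulk RNA-seq of the MDA-MB-231 line was used, with 2 libraries for DMSO and 2 for 10 µM KH-3. The authors mapped the reads with STAR to transcripts of GENCODE release 24 (hg38), obtained read estimates per transcript from eXpress, and ran DESeq2 on these. Tool versions are not given in the sources used here. The deposited signal is the authors' mean normalised read count over libraries, 1 value per transcript. The table has also the authors' log2 fold change of KH-3 against DMSO with its p-value and q-value, which were not used. A test of KH-3 from counts of single libraries had been planned and was not run, since only the mean was at hand. Depth and precision are therefore unknown.

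Transcript lengths were those of the table. A gene level was the sum over protein-coding transcripts of the mean divided by length in kb, and a percentile is the share of genes at or below it. With all transcript types, only genes with a coding row were kept. Positions and MANE Select labels came from GENCODE release 44 (hg38), in which 97.4% of 228 transcripts of the families were found by ID without version. Promoters came from RefSeq (GRCh38.p14). Every listed member was named, with full values for the highest and lowest of each group, the 3 catalytic pairs and genes whose leading coding transcript held under 60% of the coding counts. The members, lists and motifs were chosen with earlier results of these data known, and the motifs with the promoter sequences in view. Some items of these lists are not reported here. Alternatives were all transcript types, the leading coding transcript, no division by length, length minus 200 bases (at least 100) and a mean of at least 50. A value within 1.5 times the first was taken as unmoved. The computation was tested on simulated data. Python 3.11.15, numpy 2.4.6, pandas 2.3.3 and matplotlib 3.10.9 were used.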

Additional observations from a re-analysis of the deposited data

How the results depend on the processing

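Of 71 values recomputed for 18 results, 51 stayed within 1.5 times the reported value and 20 moved further. This tally is not an even measure of stability. The median percentile of 88.8 and the share of 89.4% in the leading coding transcript cannot rise by 1.5 times. The count of unchanged highest and lowest genes was taken as unmoved even at 10 of 14. No catalytic pair changed its order. With all transcript types, PSMB7 over PSMB10 was 9.65. The ratio of highest to lowest was then 40.4 for ATPases, 3.78 for activators and inhibitor and 5.60 for core alpha without PSMA6. For core beta it was 2.39, and for the immunoproteasome 5.53. With the leading coding transcript alone, PSMB5 over PSMB8 was 4.11, and the ratio was 76.7 for activators and inhibitor and 70.1 for chaperones. Without division by length it was 296 for activators and inhibitor, 15.4 for core alpha and 2.57 for core beta. With length minus 200 bases it was 99.8 for non-ATPases. With a mean of at least 50 it was 4.56 for ATPases, 2.06 for activators and inhibitor, 70.1 for chaperones, 77.2 for core alpha and 4.33 for the immunoproteasome, 75 coding transcripts and 2 pseudogene rows were left, and PSMB10, PSMC4, PSMC5 and PSME2 had no value. These 4 are low genes of the ATPases, the activators and the immunoproteasome, whereas PSMA5 and PSMG4 still gave the lowest values of core alpha and chaperones. The cause of the other moves was not tested. Of the 14 highest and lowest genes, 10 were the same with all types and without division by length, 11 with a mean of at least 50, 12 with the leading coding transcript and 14 with length minus 200 bases. No paired analysis was possible because the deposited values are means over libraries. Leaving out a replicate and a block by replicate number were not run for the same reason. Depth is unknown, rows under 7.34 are missing, and the split of reads between overlapping transcripts is an estimate whose error is unknown.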
